A study of Mus musculus with 8 samples.

Results

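The 9 genes H19, Igf2, Meg3, Nnat, Ndn, Peg3, Cdkn1c, Grb10 and Dlk1, which are imprinted in the mouse, were followed through single cells of naïve brains and GL261 gliomas of WT and Acod1 KO mice. They are 9 of the 32502 genes listed in at least 1 of the 8 count tables, and they were chosen from a list of imprinted genes with their levels per cell type and the spread of H19 between tumours already known. Their levels per cell type are therefore given as a description. Tests that compare these levels between libraries are given later for genes other than H19, and their p-values are no independent support. All 9 had UMIs in the kept cells.

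Genomic imprinting silences the copy of a gene that comes from the mother or the copy that comes from the father, through DNA methylation marks laid down in the germ line. Many imprinted genes act on growth and on the nervous system, and they often lie in clusters that share a control region. H19 and Igf2 form such a pair, in which the noncoding RNA H19 is read from the maternal copy and the growth factor gene Igf2 from the paternal copy. Meg3 and Dlk1 form another pair, with the noncoding RNA again maternal and the protein-coding gene paternal.

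The labels describe 8 Drop-seq libraries of C57BL/6 mouse brain, 1 for each genotype and condition, and the study's methods name the substrain C57BL/6N for KO mice and WT controls. In Drop-seq, cells are caught singly with beads whose barcode marks their RNA, and each 3′ RNA end captured is counted once by its unique molecular identifier (UMI). WT libraries are labelled Irg1/Acod1 +/+ and KO libraries Irg1/Acod1 -/-, Acod1 being the gene of the enzyme that makes itaconate. Naive mice had no treatment, and the label of each naive library names 2 mice. Each of the 6 other libraries came from 1 mouse implanted with 500 GL261 cells, a mouse glioma line, and collected at a tumour volume of 5 to 10 mm3 (early), 20 to 25 mm3 (intermediate) or 30 to 35 mm3 (late). Host genotype concerns the host cells, since all tumours were grown from the same implanted line. The study's methods name a KO allele with an inserted cassette, WT littermates as controls, and hosts whose sexes differed between the genotypes at the early and intermediate stages, where sex and genotype cannot be told apart. Ages are not given in the sources used here. Acod1 itself had 2 and 0 UMIs in the WT and KO naive tables, and 199, 47, 29, 28, 17 and 52 UMIs in the tables of WT early, KO early, WT intermediate, KO intermediate, WT late and KO late. The KO-labelled tumour-bearing tables thus held Acod1 UMIs, so this gene did not check the labels, and each library is called by its label throughout.

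The tables held 2885345 to 9950713 UMIs per library. After filtering, 5698 barcodes remained, 454 to 1000 per library, with a median of 2607.5 to 5642.5 UMIs per barcode. Cell classes were rebuilt from marker genes, and no deposited cell names were used. The tumour cells (3368 barcodes, 3364 of them in tumour-bearing libraries) were led by Col9a1 and Col11a1, and the other classes by their own markers, such as Ttr in choroid plexus epithelial-like cells, Ccdc153 in ciliated ependymal-like cells and Snhg11 in neuron-like cells. Of the kept barcodes, 1873 (32.9%) shared their first 11 of 12 bases with another barcode of the same library, 27.7 to 48.1% in tumour-bearing libraries against 0.441 and 2.42% in the naive libraries. Such barcodes can come from 1 bead, so counts of barcodes overstate the number of cells, and 2 barcode sequences were kept in more than 1 library. Levels are given in CPM, the UMIs of a gene per 1000000 UMIs of all genes, summed over a class within a library, for classes with at least 5 barcodes in that library.

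H19 is a long noncoding RNA of chromosome 7 (GRCm38 chr7:142575529-142578143, minus strand), and the gene Mir675 lies inside it. The 2 mature microRNAs of that gene are printed here, from RefSeq on GRCm38.p6, because they are part of the transcript that differed so widely between the tumours. The 3p arm is at chr7:142577078-142577099 and the 5p arm at chr7:142577112-142577133, both on the minus strand, and capitals mark the seed, bases 2 to 8, which pairs with target RNAs. The arms do not share a seed. Drop-seq UMIs count polyadenylated 3′ ends and do not measure the mature microRNAs.
mmu-miR-675-5p: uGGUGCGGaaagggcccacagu
mmu-miR-675-3p: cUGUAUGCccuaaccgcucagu

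In tumour cells, H19 stood at 194 CPM in WT early, 24.7 in KO early, 139.6 in WT intermediate, 28.1 in KO intermediate, 2718 in WT late and 6.03 in KO late. These levels rest on 563, 90, 1118, 134, 16016 and 24 UMIs in the same order. WT late was far above the other libraries and KO late below them all. The highest library exceeded the lowest 450.4-fold, with an exact 95% interval of 303 to 703 that covers counting error only, and the SD over the 6 libraries was 3.01 on the log2(CPM + 1) scale. This ratio fell to 32.2 without WT late and to 110.1 without KO late, and it stayed at 450.4 without any other library. Among the 7256 genes that averaged 20 CPM or more in tumour cells, H19 had the second largest SD after Ttr (3.30), the thyroid hormone carrier of the choroid plexus, whose UMIs in tumour clusters came largely from a few barcodes described below. For comparison, Peg3 had rank 214 of these genes with an SD of 0.749.

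At each stage the tumour in the WT host held more H19 than the tumour in the KO host. The WT to KO ratio was 7.88 (exact 95% interval 6.30 to 9.96) at the early stage, 4.98 (4.16 to 6.00) at the intermediate stage and 450.4 (303 to 703) at the late stage. With 1 tumour per genotype and stage these ratios compare libraries, not genotypes, and the spread of H19 was part of how the gene was chosen, so no test was made of them.

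**Figure D1:**
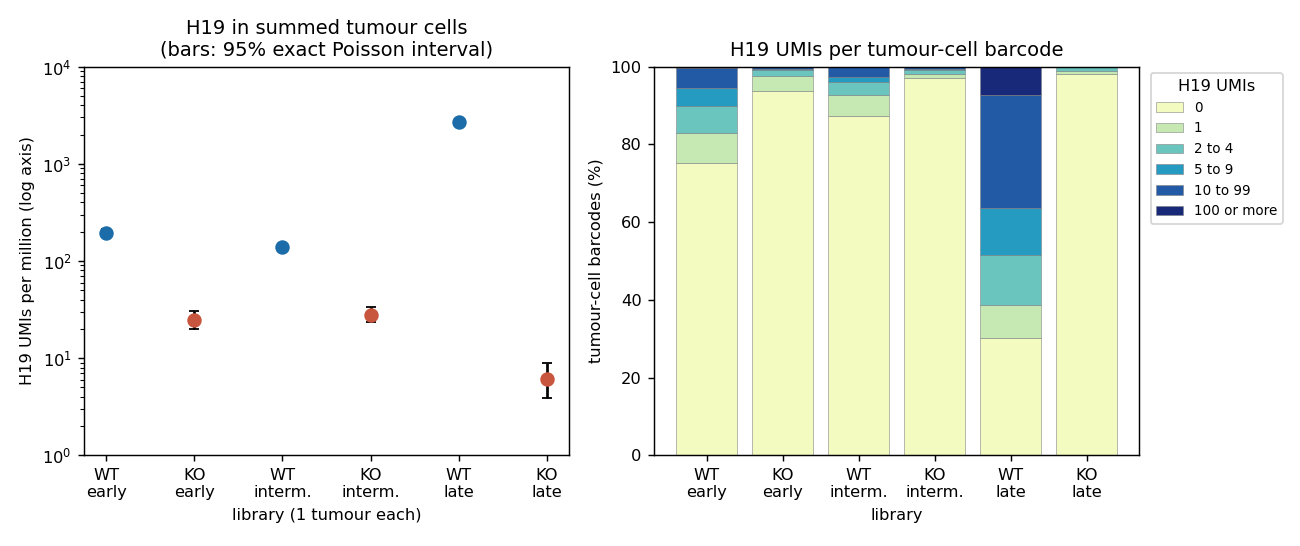
H19 in tumour cells of the 6 tumour-bearing libraries (blue, WT host; red, KO host). The left panel plots CPM on a log axis with 95% exact Poisson intervals, from 6.03 in KO late to 2718 in WT late, and the right panel the percentage of tumour-cell barcodes by number of H19 UMIs, with 30.2% of WT late barcodes and 98.1% of KO late barcodes at 0.

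The difference lay both in how many barcodes carried H19 and in how much each held. H19 UMIs were found in 64 of 257 tumour-cell barcodes of WT early (24.9%, exact binomial 95% interval 19.7 to 30.7), 33 of 513 of KO early (6.43%, 4.47 to 8.92), and 118 of 927 of WT intermediate (12.7%, 10.7 to 15). The share was 17 of 558 in KO intermediate (3.05%, 1.78 to 4.83), 405 of 580 in WT late (69.8%, 65.9 to 73.5) and 10 of 529 in KO late (1.89%, 0.910 to 3.45). These intervals take barcodes as independent, and barcodes that come from the same bead make them too narrow. Counted by distinct prefix, the shares were 24.0, 7.16, 16.2, 4.96, 77.9 and 2.63% in the same order. In WT late the share was 30.8% in macrophage-like cells (8 of 26 barcodes, median depth 3217 UMIs against 4277 in tumour cells), which are not tumour cells, whereas in KO late it was 1.74% in macrophage-like cells (2 of 115, median depth 2648), so the KO late tumour share was at that background. With each barcode thinned to 2000 UMIs, the tumour-cell shares were 18.5, 2.56, 6.26, 1.23, 59.2 and 0% in the order above, and the order of the levels was unchanged except that KO late had no H19 UMI left. The thinned WT late level of 3192 CPM was at least 875-fold above the KO late limit of 3 counts.

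H19 was uneven among barcodes of the same tumour. The median tumour-cell barcode of WT late held 876 CPM of H19, the 90th percentile was 8432 and the maximum 47214, while 175 of its 580 barcodes held none. Barcodes with at least 10 H19 UMIs were 36.4% of WT late (211 of 580) and held 95.4% of its H19 UMIs. In WT early and WT intermediate, 14 and 25 such barcodes held 75.1 and 80.2% of the H19 UMIs. KO early had 3 such barcodes, KO intermediate 4 and KO late none, and its highest barcode held 7 UMIs. Barcodes rich in H19 were also deeper, with a median of 10988 UMIs against 3351 in the rest of WT late.

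Barcodes that share a prefix gave a check of this unevenness. In WT late, 75 groups of tumour-cell barcodes with a shared prefix held 289 barcodes. All members of 38 groups had H19, no member of 21 groups had it, and 16 groups were mixed. The SD of H19 on the log2 scale was 1.32 within groups against 3.9 over all tumour-cell barcodes of the library. Barcodes of 1 prefix thus resembled each other in H19 more than barcodes of the library at large. H19 was seen in both tumour clusters of WT late, at 2753 CPM in the large one and 662 in the small one of 30 barcodes, and of the other 5 libraries, with 8 to 24 barcodes each there, none had H19 UMIs in the small cluster.

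Nearly all H19 UMIs came from the tumour-bearing libraries. The 2 naive libraries held 2 H19 UMIs in all, both in 1 endothelial barcode of KO naive. In the tumour-bearing libraries 17945 of 18316 H19 UMIs (98.0%) lay in tumour cells and 271 in mural or fibroblast-like cells. This pooled share is set by WT late, with 16016 of the tumour-cell UMIs, and did not hold in each library. In KO intermediate tumour cells held 134 H19 UMIs, fewer than the 243 of a mural or fibroblast-like prefix described below. Outside these classes H19 was highest in WT late, at 267 CPM in microglia-like cells, 260.4 in astrocytes, 184 in oligodendrocytes, 139 in macrophage-like cells, 136 in OPC-like cells (oligodendrocyte precursors) and 81.5 in endothelial cells. These levels were 3.0 to 9.82% of the tumour-cell level, and 5 tumour markers summed stood in the same classes at 3.09 to 16.6% of their own tumour-cell level. In oligodendrocytes and microglia-like cells the H19 percentages of 6.77 and 9.82 exceeded the marker percentages of 3.09 and 4.27, with overlapping exact intervals (4.14 to 10.5 against 1.48 to 5.69, and 6.08 to 15 against 2.05 to 7.85). Neuron-like cells of WT late had neither H19 nor the tumour markers. In macrophage-like cells the order was the other way, with H19 at 5.11% (2.92 to 8.30) and the markers at 16.6% (12.6 to 21.5), and these intervals did not overlap. H19 and the tumour markers were thus both present in these classes but not in 1 ratio, and the part of tumour RNA in these values was not tested. In WT early, OPC-like cells had 9 H19 UMIs, or 90.6 CPM, which was 46.6% (21.3 to 88.5) of the tumour-cell level of that library against 15.7% (10.9 to 21.9) for the markers, with overlapping intervals.

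Mural or fibroblast-like cells were the other class with many H19 UMIs. Their level was 4342 CPM in KO intermediate and 265 in WT late, and 0 in WT naive, KO naive, WT early and KO early. In WT late this was 9.75% (5.96 to 15.1) of the tumour-cell level, and the 5 tumour markers stood at 12.5% (8.29 to 18.0) of theirs. The part of tumour RNA in the WT late value was not tested. In KO intermediate 243 of the 249 UMIs came from 4 barcodes with a shared prefix, each with 57 to 65 H19 UMIs and together 14015 UMIs in all. This prefix held 36 UMIs of the collagen gene Col1a1 and none of the pericyte marker Rgs5, and by its shared prefix it may be 1 bead. Without it the class had 6 H19 UMIs in that library. Of the 49 prefixes in this class over all libraries, the 23 with more Col1a1 than Rgs5 held all 271 H19 UMIs (1172 CPM), and the other 26 held 0 of 152513 UMIs.

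The genes whose tumour-cell levels most resembled H19 over the 6 libraries, among 2222 genes that averaged 100 CPM or more, were Bpgm (Pearson r = 0.974), Sec11c (0.97), Srpk2 (0.962), Sytl2 (0.95) and Stk3 (0.948), on log2(CPM + 10). Their ranges were narrow beside that of H19, Bpgm lying between 78.4 in KO late and 225 in WT late. The 6 points share their libraries with H19 and 1 of them, WT late, carries most of the range.

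Igf2, the insulin-like growth factor gene beside H19 (chr7:142650766-142666816, minus strand), was found in other cells than H19. In choroid plexus epithelial-like cells its level was 1112 CPM in WT naive, 926 in KO naive and 2457 in KO intermediate, a mean of 1498 ± 836 (SD, n = 3 libraries). Igf2 UMIs were present in 27 of 29, 22 of 23 and 8 of 8 of these barcodes. In mural or fibroblast-like cells the mean was 1143 ± 1082 (n = 6), from 0 in KO early to 2479 in KO naive, and a few barcodes carried it, since 130 and 45 of the 175 UMIs of WT late came from 2 barcodes. Prefixes of this class with more Col1a1 than Rgs5 held 1401 CPM of Igf2 and the others 118. Endothelial cells had 48.7 ± 42.6 (n = 7). Astrocytes, oligodendrocytes, microglia-like and macrophage-like cells each had a mean under 5.

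Tumour cells held little Igf2. Their levels were 57.3 CPM in WT early, 5.21 in KO early, 5.87 in WT intermediate, 2.93 in KO intermediate, 1.70 in WT late and 0.754 in KO late. WT late, the library with 16016 H19 UMIs in tumour cells, had 10 Igf2 UMIs there. Of the 166 Igf2 UMIs of WT early, 156 came from 1 barcode with 60717 UMIs that also held 5623 Ttr UMIs, a choroid plexus transcript, and 20 of the 47 of WT intermediate came from 1 barcode with 4313 Ttr UMIs. Without barcodes over 1000 Ttr UMIs the Igf2 level was 3.53 in WT early and 3.38 in WT intermediate, so that the 6 libraries lay between 0.754 and 5.21. The 4 barcodes of naive libraries that fell in the tumour clusters were of the same kind, with 3510 to 4078 Ttr UMIs and 74 to 116 Igf2 UMIs each and no UMI of the tumour marker Col9a1.

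Cdkn1c encodes p57, an inhibitor of cyclin-dependent kinases, and lies on the same chromosome (chr7:143458339-143461050, minus strand). Its class pattern was close to that of Igf2. Choroid plexus epithelial-like cells had 1013 CPM in WT naive, 1149 in KO naive and 1735 in KO intermediate, a mean of 1299 ± 384 (n = 3), with 21 of the 36 UMIs of KO intermediate in 1 barcode. All 3 libraries of this class were above the highest endothelial library (347). Endothelial cells had 206 ± 114 (n = 7) and mural or fibroblast-like cells 184 ± 119.8 (n = 6), which did not differ beyond their spread. Over the 14 named classes the Pearson correlation of Igf2 with Cdkn1c was 0.9, of Igf2 with Grb10 0.83 and of Cdkn1c with Grb10 0.74, whereas that of H19 with Igf2 was 0.11. These correlations are across class means on log2(CPM + 10) that share libraries, and 2 or 3 classes with high levels set them.

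**Figure D2:**
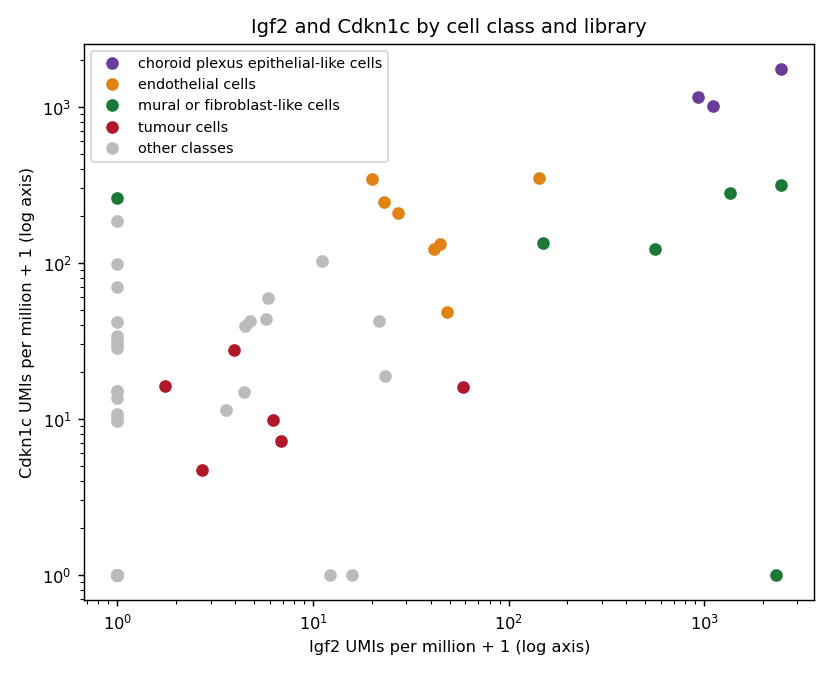
Igf2 against Cdkn1c, both as CPM + 1 on log axes, with 1 point for each class and library with at least 5 barcodes. The 3 choroid plexus epithelial-like points lie highest in Cdkn1c (1013 to 1735 CPM), endothelial points have Cdkn1c at 47.2 to 347 with Igf2 at or under 142, and tumour-cell points lie low on both axes.

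Grb10, an adaptor protein that binds insulin and IGF1 receptors (chr11:11930508-12038683, minus strand), was detected at low levels in the same vascular and choroid plexus classes. The means were 66.8 ± 53.4 CPM in mural or fibroblast-like cells (n = 6), 41.5 ± 9.56 in choroid plexus epithelial-like cells (n = 3), 36.9 ± 29.0 in endothelial cells (n = 7) and 32.1 ± 39.8 in neuron-like cells (n = 5). The spread of these classes overlapped. Tumour cells had 6 Grb10 UMIs in all 6 libraries together, and OPC-like cells, oligodendrocytes and microglia-like cells had none.

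A list of 14 binding and signalling partners of the IGF genes had 13 with at least 50 UMIs. Endothelial cells were the highest class for 4 of them (Igf1r, Insr, Igfbp3 and Igfbp7), mural or fibroblast-like cells for 4 (Igf2r, Igfbp4, Igfbp5 and Irs1), and tumour cells for the RNA-binding protein genes Igf2bp2 and Igf2bp3. The share of all genes that are highest in each class is not given here, so these counts describe the list alone. Igf1r, which encodes the receptor that carries most IGF2 signalling, had a mean of 643 CPM in endothelial cells and 39.7 in tumour cells. Igf2r, which clears IGF2 from the cell surface and is itself imprinted, had 72.5 in mural or fibroblast-like cells and 28.0 in tumour cells. Igfbp2, a binding protein, was highest in choroid plexus epithelial-like cells at 1185, the class with the highest Igf2.

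Meg3, Ndn and Peg3 shared neuron-like cells as their highest class. Their promoters are printed here because these genes had like patterns over the classes. Each runs from 250 bases before to 50 bases after the RefSeq start on GRCm38.p6, on the strand of the gene, and capitals mark every CG, the dinucleotide at which imprinting marks are laid. The windows are chr12:109540746-109541045 (plus strand) for Meg3, chr7:62348027-62348326 (plus strand) for Ndn and chr7:6730370-6730669 (minus strand) for Peg3. They hold 13, 11 and 13 CG, against a median of 7 over 32851 promoters of this length, of which 37.9, 41.4 and 37.9% hold at least as many. RefSeq gives Meg3 a second promoter window, chr12:109545148-109545447 (plus strand), which is not printed and holds 1 CG, a number that 94.6% of promoters reach. Of the 9 genes, 7 had a RefSeq promoter entry. These counts describe the letters of the windows, and methylation was not measured in this study.
Meg3 promoter: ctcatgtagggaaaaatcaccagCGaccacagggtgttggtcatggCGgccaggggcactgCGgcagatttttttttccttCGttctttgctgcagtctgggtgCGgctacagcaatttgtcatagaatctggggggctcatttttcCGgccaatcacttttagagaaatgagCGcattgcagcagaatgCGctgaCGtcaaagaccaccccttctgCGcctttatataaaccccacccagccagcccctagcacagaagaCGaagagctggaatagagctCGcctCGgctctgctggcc
Ndn promoter: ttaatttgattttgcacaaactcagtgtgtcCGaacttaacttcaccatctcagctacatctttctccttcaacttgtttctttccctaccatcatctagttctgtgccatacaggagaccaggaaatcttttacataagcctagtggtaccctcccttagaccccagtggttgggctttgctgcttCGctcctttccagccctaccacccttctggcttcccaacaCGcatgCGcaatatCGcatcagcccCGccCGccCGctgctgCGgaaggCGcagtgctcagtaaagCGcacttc
Peg3 promoter: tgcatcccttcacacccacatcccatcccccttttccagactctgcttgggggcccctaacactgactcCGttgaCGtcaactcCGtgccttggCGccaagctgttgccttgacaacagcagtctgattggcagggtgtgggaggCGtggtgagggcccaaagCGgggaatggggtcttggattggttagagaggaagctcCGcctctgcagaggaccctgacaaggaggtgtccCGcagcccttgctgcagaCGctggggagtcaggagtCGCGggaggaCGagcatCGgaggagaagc

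Meg3, a long noncoding RNA best known from neurons and pituitary (chr12:109541001-109571726, plus strand) was found mainly in neuron-like cells, which held 67.9% of its UMIs in naive and 75.2% in tumour-bearing libraries. In neuron-like cells it stood at 10521 CPM in WT naive, 10137 in KO naive, 5476 in KO intermediate, 5193 in WT late and 2936 in KO late, a mean of 6853 ± 3325 (n = 5). Both naive libraries were above the 3 tumour-bearing libraries. These sums rest on 5 to 7 barcodes per library, and in WT naive 159 of 236 UMIs came from 1 barcode, without which the level was 4682, below that of KO intermediate and WT late. Neuroblast-like cells, led by Dlx1, had 481, 1233 and 3372 in WT naive, KO naive and KO late, a mean of 1695 ± 1499.7 (n = 3). OPC-like cells had 255 ± 138 (n = 6) and ciliated ependymal-like cells 188 ± 142 (n = 3). Tumour cells had 0.499 to 4.27 CPM, 2.06 on average, from 4 to 17 UMIs per library.

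Ndn, which encodes necdin, a MAGE family protein of postmitotic neurons (chr7:62346569-62350262, plus strand), followed the same order at lower counts. Its mean was 286 ± 166 CPM in neuron-like cells (n = 5, 3 to 11 UMIs per library) and 156 ± 165 in neuroblast-like cells (n = 3), which did not differ beyond their spread. Ciliated ependymal-like cells had 76.5 ± 23.7 (n = 3) and astrocytes 46.9 (n = 7). Tumour cells held 12 Ndn UMIs in all, 4 in WT intermediate, 2 in KO intermediate, 1 in WT late, 5 in KO late and 0 at the early stage. Over the 14 classes Meg3 and Ndn had a correlation of 0.87, Ndn and Peg3 0.81, and Meg3 and Peg3 0.76.

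Peg3, a zinc finger protein gene (chr7:6703892-6730431, minus strand), was the member with the broadest distribution. Neuron-like cells had 713 CPM in WT naive, 714 in KO naive, 389.7 in KO intermediate, 366 in WT late and 599 in KO late, a mean of 556 ± 169.9. Neuroblast-like cells had 355 ± 183 (n = 3), choroid plexus epithelial-like cells 139.6 ± 45.8 (n = 3) and astrocytes 128 ± 36.4 (n = 7). Oligodendrocytes had UMIs of Peg3 in all 8 libraries, with a mean of 45.4. Macrophage-like cells had 3 Peg3 UMIs in all, a class taken here as the background.

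In tumour cells Peg3 was low in level but, because these cells were so many, they held 855 of the 1041 Peg3 UMIs of the tumour-bearing libraries (82.1%). Its level there was 22.8 CPM in WT early, 14.3 in KO early, 36.6 in WT intermediate, 32.2 in KO intermediate, 41.9 in WT late and 10.8 in KO late. Peg3 was found in 6.99 to 27.1% of tumour-cell barcodes, against 0 to 3.85% of macrophage-like barcodes, at median depths of 3569 to 6552 and 2648 to 4152 UMIs. Tumours in WT hosts were above those in KO hosts at each stage, and the ranges of the genotypes overlapped. The WT to KO ratio was 1.60 (exact interval 1.09 to 2.35) at the early stage and 3.88 (2.80 to 5.49) at the late stage. At the intermediate stage the ratio was 1.13 (0.930 to 1.39), an interval that included equal levels. In WT early 14 of the 66 Peg3 UMIs came from the barcode with 5623 Ttr UMIs, which the early ratio includes. Without that barcode WT early and KO early held 52 Peg3 UMIs each, at 18.3 and 14.3 CPM. No interval was computed for this ratio, so a difference beyond counting error at the early stage is not shown without that barcode.

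Nnat encodes neuronatin, a small proteolipid of the endoplasmic reticulum (chr2:157560078-157562522, plus strand), and lies inside the gene Blcap, which is read from the other strand. Its highest class was ciliated ependymal-like cells, at 4138 CPM in WT naive, 3946 in KO naive and 6394 in WT early, a mean of 4826 ± 1362 (n = 3). Nnat UMIs were present in 32 of 32, 15 of 17 and 7 of 7 of these barcodes. Neuroblast-like cells had 2145, 2574 and 1927 in WT naive, KO naive and KO late. Astrocytes and OPC-like cells followed at 542 ± 375 (n = 7) and 434 ± 157 (n = 6), which did not differ beyond their spread. In neuron-like cells the mean was 55.3, below that of the neuroblast-like cells, and in tumour cells 2.44. Over the classes the nearest genes to Nnat among 7426 were Dzip1 (r = 0.88), Blcap (0.874) and Gm14964 (0.852). Whether the counting used strand is not given in the sources used here, so reads of Nnat and of Blcap cannot be fully told apart.

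Dlk1, the Delta-like ligand gene beside Meg3 (chr12:109452823-109463336, plus strand), was close to absent. It had 2 UMIs in OPC-like cells, 5 in astrocytes, all of naive libraries, and 3 in tumour cells of tumour-bearing libraries. A further 19 Dlk1 UMIs came from 1 barcode of WT naive with 3510 Ttr UMIs. At this depth no order of the classes can be read for Dlk1.

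**Figure D3:**
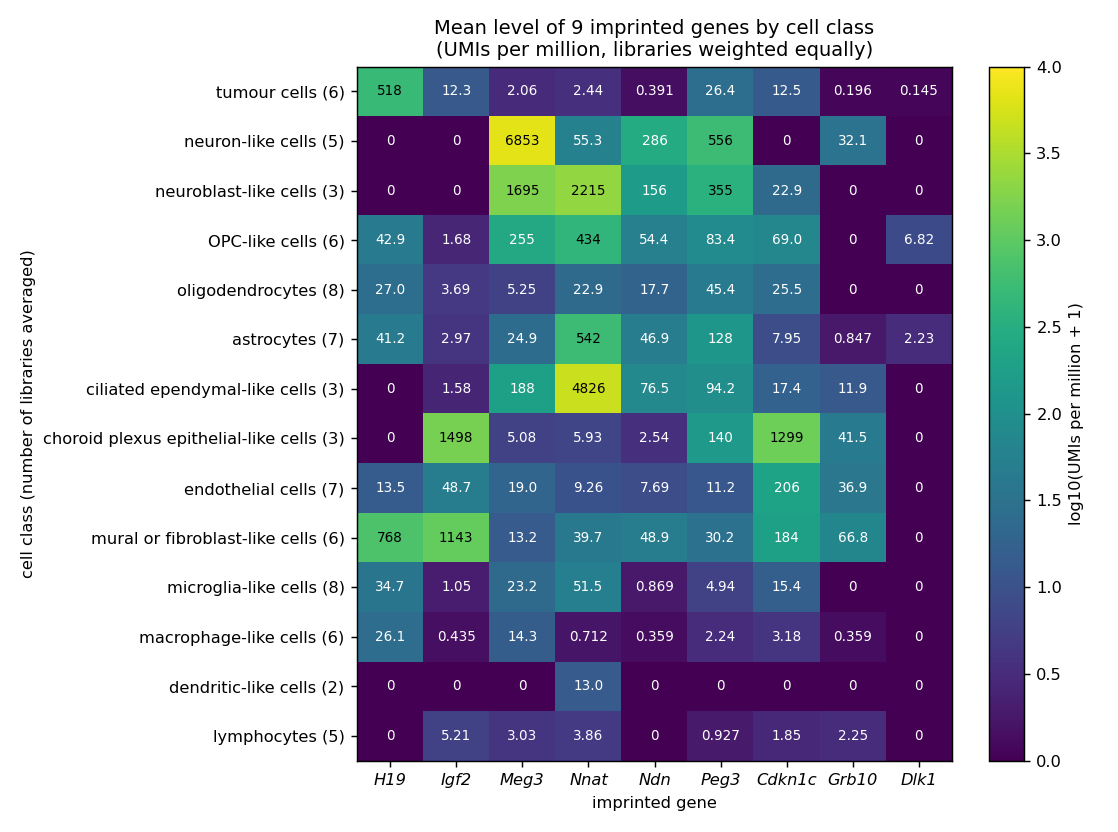
Mean level of the 9 genes in 14 cell classes, in CPM with libraries weighted equally, with colour on a log10(CPM + 1) scale and the number of libraries after each class name. Meg3, Ndn and Peg3 are highest in neuron-like cells, Nnat in ciliated ependymal-like cells, Igf2 and Cdkn1c in choroid plexus epithelial-like cells, and the 768 of H19 in mural or fibroblast-like cells rests mainly on the 4 barcodes of KO intermediate.

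Over the 14 class means the genes nearest in pattern were, for Meg3, the synaptic gene Nrxn3 (r = 0.986), D430041D05Rik and Sept3. For Ndn they were Kifap3 (0.932), Magi2 and Pkia, for Peg3 Stau2 (0.945), Ahi1 and Map9, and for Grb10 Nr2f2 (0.946), Pcp4l1 and Nenf. Igf2 was nearest to Col8a1 (0.949), Cdkn1c (0.902) and Sulf1, and Cdkn1c to Igf2, Cgnl1 and Myl6. Dlk1 was nearest to Fabp7 (0.906), Matn4 and Gpc5, on 10 UMIs in the averaged classes. The class means share libraries, and the values describe likeness of level alone.

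Of a wider list of 53 other imprinted genes, 49 were in the tables and 37 had at least 50 UMIs. Their highest class was neuron-like cells for 11, neuroblast-like cells for 6, and ciliated ependymal-like cells, endothelial cells and tumour cells for 3 each. The neuron-like and neuroblast-like means rest on 29 and 27 barcodes. The share of all genes that are highest in each class is not given here, so these counts describe the list alone. The following 5 were named after their values were seen. Rian, a noncoding RNA of the Meg3 region, had 243 CPM in neuron-like cells and 0.143 in tumour cells, and Snrpn, a splicing protein gene of the Ndn region, 342 and 2.10. Asb4 and Atp10a were highest in endothelial cells at 129 and 167, and Phlda2, a growth-restraining gene of the Cdkn1c region, in tumour cells at 45.3.

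The contrast of naive and tumour-bearing brains within a class was fitted with edgeR's quasi-likelihood test over all genes that passed its filter on low counts, with genotype as a covariate and Benjamini-Hochberg adjustment at 0.05. In astrocytes Nnat was lower in tumour-bearing libraries. It stood at 1089.6 CPM in WT naive and 1053 in KO naive, and at 523 in WT early, 206 in KO early, 263 in KO intermediate, 326 in WT late and 332 in KO late. The groups did not overlap. The log2 fold change was -1.72 ± 0.30 (SE, 2 against 5 libraries) with an edgeR adjusted p of 0.00816. These levels were known when the genes were chosen, so this p-value describes the contrast and is no independent support. Nnat was the only member that passed the filter in astrocytes, where 8 of 615 genes (1.30%) were called, and the other 8 members were not tested there. The naive sums rest on 326 and 355 Nnat UMIs and the others on 5 to 37, and WT intermediate, with 3 astrocyte barcodes, was not used. Without KO naive the fold change was -1.38 with an edgeR adjusted p of 0.755, while over the alternatives it ranged from -2.13 to -1.38 with adjusted p from 4.41e-06 to 0.755.

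The Nnat difference was seen in the share of barcodes and without the richest barcode. Nnat UMIs were in 47.7 and 54.6% of astrocyte barcodes of WT and KO naive, and in 21.4 to 39.1% in the tumour-bearing libraries, against 4.76 and 6.06% of endothelial barcodes of the naive libraries. Median depth was 2562 and 2857 UMIs in naive astrocytes, 2055 to 2537 in the others, and 2459 and 2581 in naive endothelial cells. Thinned to 1000 UMIs, the shares were 34.2 and 40.7% against 15.4 to 36.4%, and these overlapped. Without the richest barcode of each library the levels were 851 and 872 against 65.9 to 293. The 9 astrocyte markers summed to 32208 to 39474 CPM in all 7 libraries, with none at 0. The 8 ciliated ependymal markers, of the class richest in Nnat, summed to 100.3 and 193 in naive and 59.0 to 332 in tumour-bearing astrocytes, and the 8 choroid plexus markers to 732 and 3763 against 105 to 580.5. The choroid plexus markers thus moved with Nnat, Nnat itself had a mean of 5.93 in that class, and the part of RNA from other cells was not tested.

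**Figure D4:**
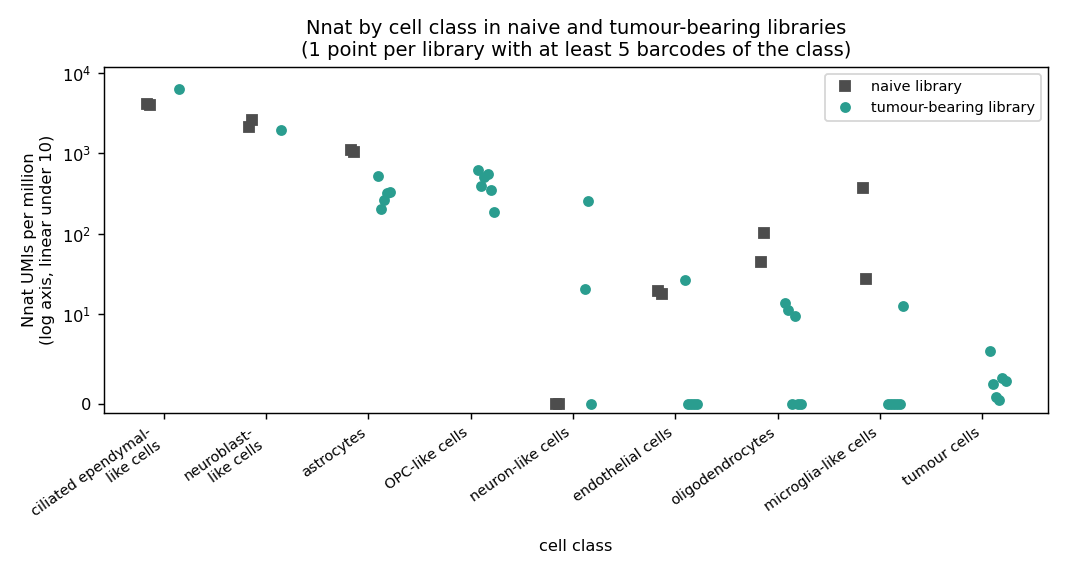
CPM of Nnat by cell class on a log axis that is linear under 10, with 1 point per library with at least 5 barcodes of the class (squares, naive; circles, tumour-bearing). In astrocytes the 2 naive libraries (1053 and 1089.6) lie above the 5 tumour-bearing ones (206 to 523), while ciliated ependymal-like cells stay between 3946 and 6394.

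Cdkn1c in endothelial cells did not pass the test. Its levels were 207 CPM in WT naive and 347 in KO naive, and 47.2 in WT early, 131 in KO early, 343 in KO intermediate, 122 in WT late and 243 in KO late, so the groups overlapped. The log2 fold change was -0.99 ± 0.36 with an edgeR adjusted p of 0.142. It was the only member tested in endothelial cells, where 86 of 1391 genes (6.18%) were called. In microglia-like cells, where 540 of 3147 genes (17.2%) were called, and in oligodendrocytes, where 60 of 2664 (2.25%) were called, no member passed the filter on low counts. Nnat stood at 372 CPM in microglia-like cells of WT naive, where 58 of its 76 UMIs came from 1 barcode, without which the level was 91.1.

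The wider imprinted list had 11 genes tested in microglia-like cells, of which 1, Sgce, was lower in tumour-bearing libraries (log2 fold change -1.26 ± 0.37, edgeR adjusted p = 0.0247) and none higher. Sgce encodes epsilon-sarcoglycan, and 1 of 11 is a smaller share than the 17.2% called over all genes. Naive and tumour-bearing microglia-like cells lay mostly in different clusters, 199 of the 208 barcodes of a cluster led by P2ry12 being naive and 1 of the 167 of a cluster led by C1qa. None of 12 listed genes was called in oligodendrocytes, of 7 in endothelial cells or of 2 in astrocytes. The median log2 fold change of the list was -0.19 in microglia-like cells against 0 over all genes tested.

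Between tumours, the other members were compared for KO against WT hosts with the stage as a block, over 3 pairs of libraries. No gene was called among the 14366 tested (0%) by edgeR, while 918 had an unadjusted p under 0.05 and DESeq2 called 69. Ndn, Grb10 and Dlk1 did not pass the filter, and although H19 is among the 14366 genes, its values from this fit are not given, because its spread between these libraries was used to choose it. Cdkn1c had 14.9 CPM in WT early, 8.77 in KO early, 6.24 in WT intermediate, 26.6 in KO intermediate, 3.73 in WT late and 15.1 in KO late. The ranges of the genotypes overlapped, and the log2 fold change was 1.22 ± 0.56 with an edgeR adjusted p of 0.839. In WT early 34 of the 43 Cdkn1c UMIs came from the barcode with 5623 Ttr UMIs, and in WT intermediate 14 of 50 from the one with 4313. Without barcodes over 1000 Ttr UMIs the WT early and WT intermediate levels were 3.18 and 4.51, and each KO library was above each WT library. The fold change was then 2.13 ± 0.32 with an edgeR adjusted p of 0.415. Over all tumour-cell barcodes, the 9 endothelial markers summed to 436, 511 and 524 CPM in KO early, KO intermediate and KO late. In WT early, WT intermediate and WT late they summed to 263, 265 and 198, so these markers split the libraries in the same way. Endothelial cells had a mean of 206 CPM of Cdkn1c, and the part of RNA from other cells was not tested.

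Peg3 had a log2 fold change of -0.86 ± 0.35 (edgeR adjusted p = 0.752) for KO against WT hosts, Igf2 -2.11 ± 0.55 (0.5), Meg3 1.07 ± 0.62 (0.926) and Nnat -0.76 ± 0.54 (0.971). Without the barcodes rich in Ttr, Igf2 stood at -0.10. For late against early tumours, with genotype as a covariate, edgeR again called none of 14366 genes (0%). The unadjusted p was under 0.05 for 1065 of them, and DESeq2 called 23. The study's methods name a female WT early host and male hosts for WT late, KO early and KO late. In the WT pair sex and stage therefore cannot be told apart. Igf2 had a log2 fold change of -4.38 ± 0.70 (edgeR adjusted p = 0.592), which was -1.85 ± 0.64 (0.609) without the Ttr-rich barcodes. Meg3, Nnat, Peg3 and Cdkn1c had -0.32, -0.53, 0.33 and -0.76. None of the 30 listed imprinted genes tested was called in either comparison.

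**Figure D5:**
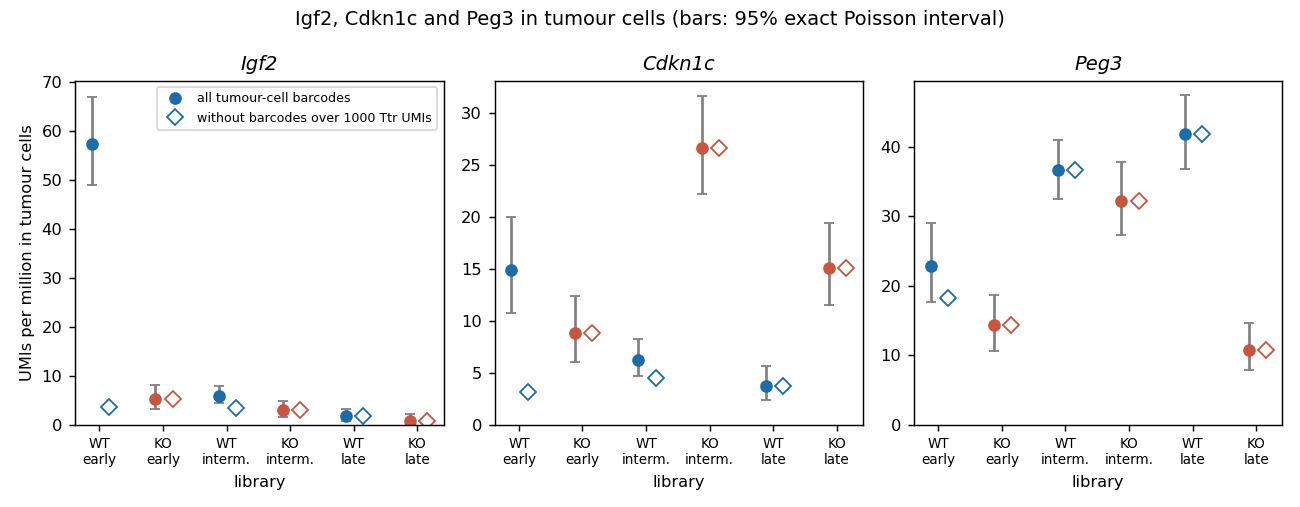
Igf2, Cdkn1c and Peg3 in tumour cells of the 6 tumour-bearing libraries, in CPM with 95% exact Poisson intervals (blue, WT host; red, KO host). Open diamonds leave out barcodes with over 1000 Ttr UMIs, which takes Igf2 of WT early from 57.3 to 3.53 and Cdkn1c from 14.9 to 3.18.

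Within each tumour, cells above and at or below the median share of UMIs from 35 cell cycle genes were compared with the library as a block. Of 13253 genes 3084 (23.3%) were called. The scores form a range with many barcodes near the median, 13 to 62 per library within 10% of it, and high-score barcodes were deeper in 4 of 6 libraries. H19 had a log2 fold change of -0.25 ± 0.19 in high-score cells (edgeR adjusted p = 0.396) and did not pass the threshold. It passed it without the filter on low counts (-0.23, edgeR adjusted p = 0.0220) and without WT early (-0.52, edgeR adjusted p = 0.0177), and over all alternatives the adjusted p lay between 0.0177 and 0.726. Nnat had 1.02 ± 0.49 (0.154), Peg3 -0.08 ± 0.12 (0.711) and Cdkn1c, the kinase inhibitor, -0.34 ± 0.38 (0.579). Igf2 was called, at -2.46 ± 0.56 with an edgeR adjusted p of 0.00502. That call rested on the Ttr-rich barcodes, without which it was -0.54 with an adjusted p of 0.365, and it was lost in 6 of 17 alternatives, among them without WT early (-1.11, 0.121) and with DESeq2 (-1.44, 0.293).

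Of 29 tested genes of the wider imprinted list, 1 was higher in high-score cells and 5 were lower, a share no greater than the 23.3% called over all genes, with a median log2 fold change of -0.13 against -0.02 over all genes. Atp10a, a lipid flippase gene, was higher by 0.49 ± 0.15 (edgeR adjusted p = 0.0234). The lower genes were Snrpn (-1.63 ± 0.51, 0.0318), Cobl (-0.43 ± 0.14, 0.0345), Zrsr1 (-0.43 ± 0.12, 0.0192), H13 (-0.24 ± 0.07, 0.0193) and Ube3a (-0.17 ± 0.05, 0.0245).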

How the data were processed

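The deposited tables hold whole UMI counts per gene and barcode, 3000 barcodes per library, which the authors made from Drop-seq reads. The submitters' processing notes name bcl2fastq 2.0, STAR and GRCm38/mm10, and the annotation and any use of strand in the counting are not given in the sources used here. From these counts, the 1000 barcodes with most UMIs per library, genes seen in at least 30 cells and cells with at least 1000 genes were kept (5698 cells). Log2(CPM + 1) values, without the 9 genes and a wider imprinted list, were reduced to 50 principal components and embedded by tSNE (Rtsne 0.17, perplexity 50), then clustered by HDBSCAN (scikit-learn 1.9.0, minimum size 19). The 311 unassigned cells took the majority of 15 neighbours. Clusters were named from fixed marker lists, and the endothelial cluster of 328 cells was divided by cell into endothelial and mural or fibroblast-like cells, 5 of them with marker sums within 2 UMIs. One cluster of 35 cells stayed unnamed. Doublets were kept, and their removal was an alternative. Barcodes that share a prefix were kept apart, and their merging was an alternative.

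Raw UMIs were summed per class and library (at least 5 cells) and tested with edgeR 4.0.16 (quasi-likelihood, TMM, filterByExpr, Benjamini-Hochberg over all genes tested) in R 4.3.3, with DESeq2 1.42.0 as an alternative. The SE beside an edgeR fold change was derived from the test, as the size of the log2 fold change over the square root of its F statistic. Libraries were grouped by the labels, with 1 library per genotype and condition, so the p-values rest on the spread between libraries of different stages or genotypes. Intervals (95%, exact Poisson, exact binomial and, for ratios, conditional exact) cover counting error only, and a count of 0 was read against a limit of 3 counts. Spread was taken on log2(CPM + 1) and likeness of pattern on log2(CPM + 10). The genes named were the 9 genes throughout, called genes of the wider list (at most 5 in each direction), and the nearest genes by Pearson r, 5 for H19 and 3 for each other gene. The 9 genes and the lists were chosen with earlier results of these data known. In data simulated from the real means and library sizes, the edgeR steps found 29.1% of genes changed 2-fold and 78.9% of those changed 4-fold for KO against WT hosts, 7.37 and 61% for late against early, 82.3 and 98.1% for the cycle score, and 59 and 96.8% for astrocytes. Of the calls in these simulations, 5 of 108, 10 of 81, 20 of 201 and 4 of 158 were false, in the same order. For endothelial cells 15 of 165 were false. The simulated libraries shared their mean for each gene, without stage or library effects. Coordinates are from GENCODE M21 on GRCm38. Python 3.11.15, scanpy 1.11.5 (Scrublet), leidenalg 0.10.2, scipy 1.17.1, numpy 2.4.6 and pandas 2.3.3 were used.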

Additional observations from a re-analysis of the deposited data

Results flagged for a closer look

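Among 18 pairs of a gene and a class with at least 20 UMIs, 6 had 1 library that stood apart from the others by Dixon's criterion at its 95% level. Most of these pairs were of H19, whose spread was used to choose it, and several share the library WT late. Their number is therefore a description and is not set against chance. H19 in tumour cells of WT late was 2718 CPM, with the next library at 194, but this spread was used to choose the gene, so that value is a description and no test of it. In the same library H19 was 267 in microglia-like cells (next 11.1), 184 in oligodendrocytes (next 22.0) and 139 in macrophage-like cells (next 11.4), and tumour markers were present in those classes too. H19 in mural or fibroblast-like cells of KO intermediate was 4342 (next 265, 4 tumour-bearing libraries), 243 of its 249 UMIs lying in 4 barcodes with a shared prefix. Igf2 in tumour cells of WT early was 57.3 (next 5.87), 156 of its 166 UMIs lying in 1 barcode with 5623 Ttr UMIs.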

How the results depend on the processing

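With 2 to 6 libraries on each side and 1 per genotype and condition, the depth and number of libraries limit what can be called for genes with few UMIs. Ndn, Grb10 and Dlk1 could not be tested between tumours, and class levels under 5 barcodes were not used. Replicate numbers pair nothing, because each genotype and condition holds 1 library, and pairing was made through blocks only. Blocks were the stage for KO against WT, where the fit without it also called 0 genes, and the library for the cycle score. The merging of barcodes with a shared prefix and the removal of tumour-cluster barcodes with over 1000 Ttr UMIs were chosen after seeing the data. The cause of the changes listed here was not tested.

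The highest class was the same for 8 or 9 of the 9 genes under 6 other clusterings or filters. The H19 ratio between tumours was 773 as a mean over cells, at least 875 after thinning and 32.2 to 450.4 with 1 library left out (32.2 without WT late, 110.1 without KO late). KO against WT calls, 0 as reported, were 69 with DESeq2, 498 without the filter on low counts, 2 with at least 500 genes per cell, and 2 to 79 with 1 library left out (79 without WT early, 75 without KO early, 28 without KO late, 23 without WT late, 2 without either intermediate library). Without the filter, Igf2 (-2.12, edgeR adjusted p = 1.25e-05), Peg3 (-0.88, 0.0473) and Cdkn1c (1.20, 0.0151) passed. Late against early calls, 0 as reported, were 23 with DESeq2, 381 without the filter and 0 to 94 with 1 library left out (94 without KO late, 13 without KO early, 11 without WT late). Igf2 then passed in 4 of 16 alternatives (DESeq2, no filter, without KO early, without KO late). Cycle score calls, 3084 as reported, were 1553 with DESeq2.

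Naive against tumour-bearing calls with 1 library left out were 76 to 611 in microglia-like cells (110 without WT naive, 76 without KO naive), 3 to 82 in oligodendrocytes (3 without KO naive, 32 without KO late), 37 to 110 in endothelial cells (37 without KO naive) and 3 to 21 in astrocytes (3 without KO naive, 13 without WT naive, 18 without KO intermediate, 20 without WT late, 21 without KO late). Without the filter they were 213 in oligodendrocytes, 175 in endothelial cells and 57 in astrocytes. Merged barcodes gave 56 in endothelial cells, and astrocytes had 18 calls with at least 10 cells and 28 with at least 500 genes.

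Of the single-gene fold changes, 240 kept direction and side of the threshold, 10 passed it, 7 lost it and 22 changed sign, none of these 22 called. Ranges in brackets below cover only the fits with 1 library left out. For late against early, Igf2 became 1.55 with doublets removed. Meg3 became 0.40 without WT early (range -1.21 to 0.40), 0.34 without WT late and with another tSNE seed, 0.15 with doublets removed and 0.31 with merged barcodes. Nnat became 0.01 without WT early (range -0.96 to 0.01), and Peg3 -0.62 without WT late (range -0.62 to 0.98). Cdkn1c became 0.73 without WT early (range -2.05 to 0.73), 0.56 with another seed, 0.63 with Leiden clustering, 0.47 with doublets removed and 0.53 without Ttr-rich barcodes. For the cycle score under another seed, Leiden clustering, doublet removal and removal of Ttr-rich barcodes, Peg3 was 0.04, 0.06, 0.09 and 0.00, and Cdkn1c 0.28, 0.20, 0.40 and 0.27. Without WT early, Cdkn1c was 0.08 (range with 1 library left out -0.62 to 0.08).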
